A study of Mus musculus with 12 samples.

Results

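The genes described here are 51 mouse genes known to be imprinted or to lie in imprinted loci. They were taken by gene symbol, with earlier results of these data known. The deposited table holds 50 of them among its 21738 symbols, and Zrsr1 is not analysed here. They were grouped by 21 loci and by the parental allele known to be expressed in some tissue, which was not checked for cortex. Messenger RNA from the cortex of adult mice was sequenced in 12 libraries, 4 of them labelled WT for Tet1, 4 labelled HxD and 4 labelled KO. Tet1 encodes a dioxygenase that oxidises 5-methylcytosine in DNA, and such enzymes hold their iron through a motif called HxD. No source used here says how the alleles were made, what the strain, sex or exact age was, or whether each library came from its own animal. A p-value below therefore measures the spread between these samples, and that spread may be technical.

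Imprinted genes are transcribed mainly from the maternal or mainly from the paternal copy. The choice is set by DNA methylation that differs between egg and sperm and is kept at imprinting control regions after fertilisation, and TET enzymes take part in erasing it in the germ line. Many of these genes act in growth, and some show their imprint mainly in brain, such as Ube3a, whose paternal copy is silenced in neurons. The table does not separate parental alleles, so every value below is the sum of both. In bulk cortex, fewer cells of a type and less RNA per cell cannot be told apart.

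The promoters of Ndn, Magel2 and Mkrn3 are shown because the libraries of these 3 paternally expressed neighbours ranked differently over the genotypes. Each gene has 1 RefSeq transcript. No test compared the 3 genes with each other, and the part of these sequences in their values was not tested. Each line holds the 250 bases before the start of transcription, from RefSeq on GRCm38.p6, 5′ to 3′ on the strand of the gene. Capitals mark CpG, the dinucleotide at which most DNA methylation lies.
Ndn (chr7:62348027-62348276, plus strand): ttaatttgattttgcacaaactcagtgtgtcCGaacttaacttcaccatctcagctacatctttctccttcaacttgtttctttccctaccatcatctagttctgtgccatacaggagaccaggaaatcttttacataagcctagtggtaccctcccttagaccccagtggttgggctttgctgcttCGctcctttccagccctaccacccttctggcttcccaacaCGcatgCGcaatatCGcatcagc
Magel2 (chr7:62376729-62376978, plus strand): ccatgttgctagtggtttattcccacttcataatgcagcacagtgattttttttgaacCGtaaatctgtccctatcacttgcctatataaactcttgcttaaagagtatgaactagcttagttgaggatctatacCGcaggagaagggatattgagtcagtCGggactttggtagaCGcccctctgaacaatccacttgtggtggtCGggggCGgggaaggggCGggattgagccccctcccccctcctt
Mkrn3 (chr7:62420154-62420403, minus strand): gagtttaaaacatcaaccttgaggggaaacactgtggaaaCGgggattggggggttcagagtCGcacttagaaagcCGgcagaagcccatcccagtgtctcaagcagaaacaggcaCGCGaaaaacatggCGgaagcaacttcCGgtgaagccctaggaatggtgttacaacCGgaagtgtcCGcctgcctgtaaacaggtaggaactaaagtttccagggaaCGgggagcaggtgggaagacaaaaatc
These windows hold 5 CpG for Ndn, 7 for Magel2 and 10 for Mkrn3. For the medians and the hexamer shares below, only the first start listed for each gene was used. The median was 10.5 over the 42 members with a RefSeq promoter and 6 over all 27025 promoters. It was 10.5 over the 28 tested members with one and 16 over the 9231 tested genes with one. The hexamer TGCCGC, which the imprint-keeping protein ZFP57 binds when methylated, was searched on both strands. It lay in none of the 3 windows, in 9 of the 42 members' promoters (21.4%), in 8.59% of all promoters and, among tested genes, in 8 of 28 members (28.6%) and 14.5% of all.

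Library totals ran from 5791642 to 10915574 estimated counts. The Tet1 row was at 0 in the 8 WT and KO libraries and at 1, 0, 63 and 67 in HxD 1 to 4, so it gives no check of the KO label. The 10 cortical neuron markers summed to 7229 to 12600 CPM (estimated counts scaled to a common library size) per library. HxD 3 stood apart in hypothalamic and striatal markers and HxD 1 in choroid plexus markers, with values beside the genes concerned. Of the 50 genes, 36 passed the filter on low counts and were tested, 9 stayed under it, and 5 were listed at 0 in all 12 libraries: H19, Mest, Gnas, Ddc and Phlda2. A 0 here is no sign of silence, since Gnas, which encodes the stimulatory G protein alpha subunit used by nearly every cell, is among the 5. Over all rows, 23.7% were at 0 throughout.

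Among the tested members, genes grouped as paternally expressed led the levels per transcript length listed for WT cortex. Whether low rows missed signal was not tested. Snrpn, which encodes SmN, a spliceosomal protein of neurons, stood at 632 ± 77.7 CPM per kilobase (SD, n = 4). Nap1l5, a retrogene related to nucleosome assembly proteins, followed at 286 ± 40.6. Impact, which restrains the eIF2 kinase GCN2, stood at 131 ± 27.1 and the noncoding RNA Peg13 at 103 ± 20.5 CPM per kilobase. The WT libraries of Snrpn and of Nap1l5 did not overlap with those of any gene ranked below them, whereas Impact and Peg13 overlapped with each other. The next step held Ppp1r9a, the actin-binding protein neurabin, at 61.2 ± 10.7, Ndn at 59.9 ± 13.7 and the zinc finger gene Peg3 at 47.2 ± 1.301. The Ndn libraries overlapped with those of both other genes, whereas each Ppp1r9a library lay above each Peg3 library. Of these 7 genes, Ppp1r9a alone is grouped here as maternally expressed, a class that was not checked for cortex. At the low end lay Magel2 at 0.422 ± 0.228, Meg3 at 0.364 ± 0.165, Kcnq1ot1 at 0.3399 ± 0.0581, Commd1 at 0.178 ± 0.0878 and Plagl1 at 0.0705 ± 0.141 CPM per kilobase. Lengths are those of the longest GENCODE transcript, which for the long noncoding RNAs Kcnq1ot1 and Meg3 is 93092 and 14548 bases.

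**Figure D1:**
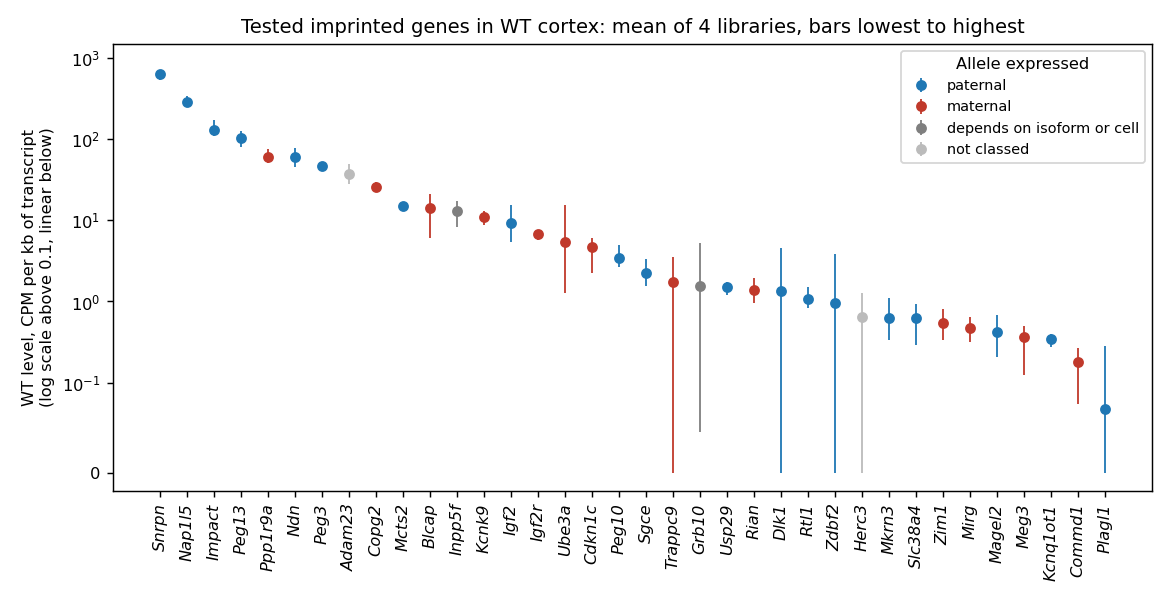
Mean level of the 36 tested imprinted genes in WT cortex, in CPM per kilobase of the longest GENCODE transcript (y axis, logarithmic above 0.1), in falling order, with bars from the lowest to the highest of 4 libraries and colour for the allele expressed. Snrpn leads at 632, and bars that reach 0 (Trappc9, Dlk1, Zdbf2, Herc3, Plagl1) belong to genes listed at 0 in at least 1 WT library.

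No imprinted gene passed edgeR's quasi-likelihood test at an adjusted p below 0.05. In HxD against WT, 0 of 36 were called, as were 0.898% of all 11693 tested genes, and 3 members had an unadjusted p below 0.05 (4.05% of all genes). In KO against WT, 0 of 36 were called (0.154% of all genes) and 3 had an unadjusted p below 0.05 (9.48%). In KO against HxD, 0 of 36 were called (1.02%) and 4 had an unadjusted p below 0.05 (11.6%). By direction, 0.487% of all genes were called higher and 0.411% lower in HxD against WT, 0.0428% and 0.111% in KO against WT, and 0.445% and 0.573% in KO against HxD. Both comparisons with WT use the same 4 WT libraries. By the DESeq2 Wald test 1 of the 35 members with an adjusted p, Ndn, was called in HxD against WT (1.48% of all genes with one), 1, again Ndn, in KO against WT (2.48%) and 0 in KO against HxD (3.4%). By limma-voom 1 of 36 members, Grb10, was called in HxD against WT (0.701% of all genes), 0 in KO against WT (0%) and 0 in KO against HxD (0.718%). Ndn and Grb10 were also the tested members whose libraries did not overlap: 2 of 36 in HxD against WT (3.48% of all genes), 2 of 36 in KO against WT (7.2%) and, for Grb10, 1 of 36 in KO against HxD (7.59%).

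Directions were mixed. In HxD 21 of 36 members lay above WT (51.3% of all genes), with a median log2 fold change of 0.09 against 0.01 over all tested genes. In KO 15 of 36 lay above WT (50.9%), with a median of -0.16 against 0.01. Without library HxD 3 the HxD median was -0.01, with 17 of 36 members above WT (49.3% of all genes). By parental allele, 11 of 19 paternally and 9 of 13 maternally expressed genes lay above WT in HxD, and 6 of 19 and 7 of 13 in KO. Without HxD 3, 8 of 19 paternally expressed genes lay above WT in HxD. Of the maternally expressed genes, Zim1, Kcnk9, Cdkn1c and Igf2r then turned below WT (log2 fold change -0.23, -0.06, -0.006 and -0.02). The other maternally expressed genes kept their side of WT. Some marker lists of other tissue and of glia also leaned to one side, with 0 markers called in any comparison. Of 10 meningeal markers, 1 lay above WT in HxD and 0 in KO. Of 8 astrocyte markers, 4 lay above WT in HxD and 7 in KO, and of 7 tested microglial markers 1 and 2. Of 10 cortical neuron markers, 6 lay above WT in HxD and 4 in KO. Of 8 tested striatal markers, 7 lay above WT in HxD (median log2 fold change 0.65), 0 in KO (median -1.25) and 0 in KO against HxD (median -2.31). All 9 listed ones summed to between 400.5 and 670.3 CPM in the WT libraries, between 259.9 and 1123 in those of HxD and between 291.7 and 436.2 in those of KO. Of 8 oligodendrocyte markers, 0 lay above WT in HxD (median -0.25), 6 in KO (median 0.36) and 8 in KO against HxD (median 0.68), with sums between 2083 and 4951 CPM in the WT libraries, between 1479 and 4384 in those of HxD and between 3390 and 4006 in those of KO. Their part in the direction of the imprinted genes was not tested. The counts of members say nothing of single genes. The steadiest members were Peg3, Ppp1r9a, Copg2, Igf2r, Snrpn, Peg13, Kcnk9, Impact, Mcts2 and Nap1l5, whose log2 CPM varied less within genotypes than that of the median tested gene (SD 0.335). For these 10 genes the log2 fold change was between -0.28 and 0.12 in HxD against WT, between -0.26 and 0.16 in KO against WT and between -0.29 and 0.18 in KO against HxD, with standard errors of 0.10 to 0.21. Over all 36 members the median SD was 0.522.

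**Figure D2:**
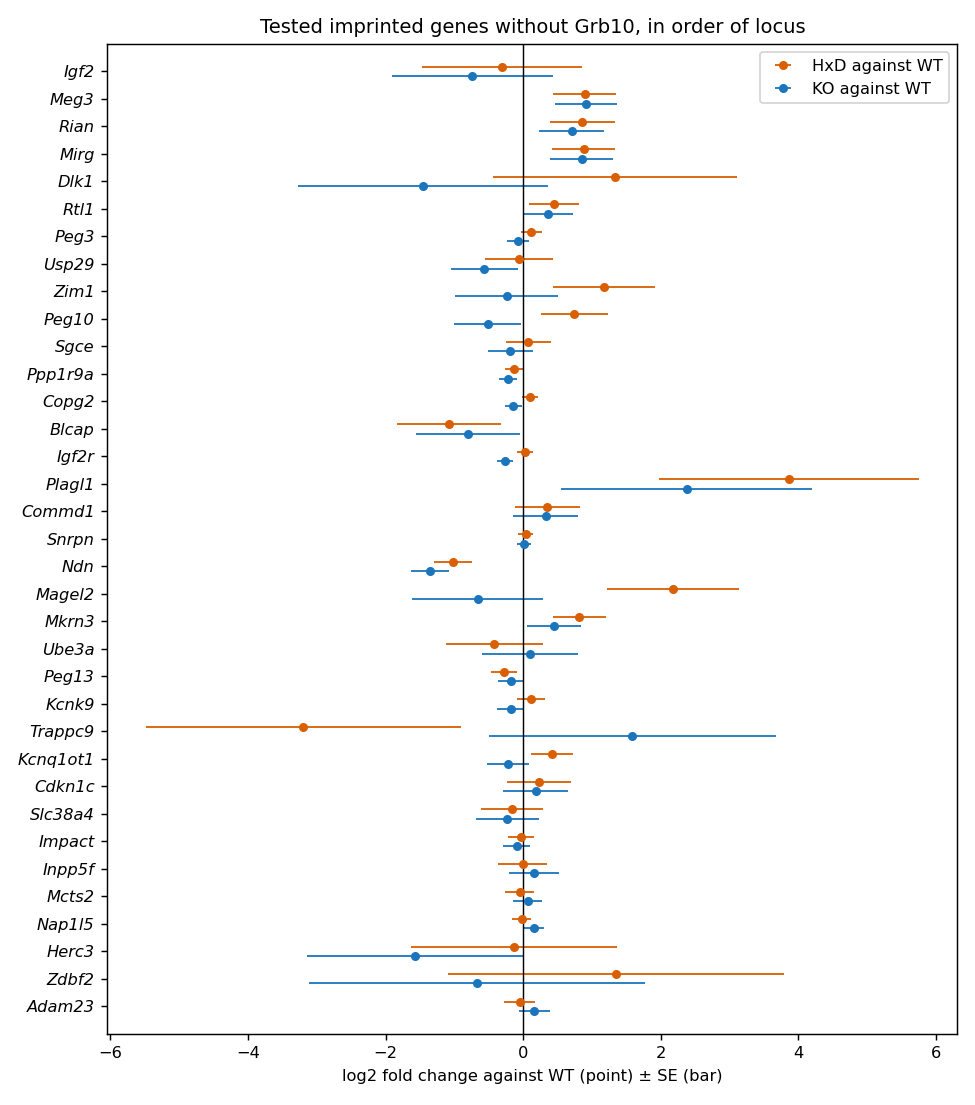
Log2 fold change (point) and standard error (bar) on the x axis for 35 tested imprinted genes, ordered by locus on the y axis, in HxD against WT (orange) and KO against WT (blue); Grb10 is left out because it is listed at 0 in all KO libraries. Ndn lies at -1.01 and -1.36 with bars clear of 0, while Snrpn of the same domain lies at 0.04 and 0.01.

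Ndn was lower in each mutant library than in each WT library. The gene encodes necdin, a MAGE family protein of postmitotic neurons, and belongs to the domain whose paternal loss causes Prader-Willi syndrome. Its levels in WT 1 to 4 were 170.2, 194, 286 and 235 CPM. In HxD 1 to 4 they were 151, 66.3, 132 and 89.1 CPM, and in KO 1 to 4 they were 72.3, 91.9, 115 and 66.5 CPM. All 8 mutant libraries lay below the lowest WT library, with HxD 1 closest to it. Means were 221 ± 50.5 CPM for WT, 109.6 ± 38.8 for HxD and 86.4 ± 21.98 for KO (SD, n = 4). The log2 fold change against WT was -1.01 ± 0.28 (SE) in HxD and -1.36 ± 0.28 in KO, so the mutant means were 2.02 and 2.56 times lower. In edgeR's test the adjusted p-values were 0.312 and 0.137 (unadjusted 0.00395 and 5.7e-04), and by the DESeq2 Wald test they were 0.0252 and 3.2e-04. HxD and KO libraries overlapped, with a log2 fold change of -0.34 ± 0.28 between them (edgeR adjusted p = 0.688).

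The other genes of the Snrpn-Ube3a domain did not share that order of libraries. Snrpn stood at 1124, 1484, 1239 and 1400.0 CPM in WT 1 to 4, at 1212, 1498, 1224 and 1441 in HxD 1 to 4 and at 1268, 1253, 1355 and 1409 in KO 1 to 4. The 3 genotypes overlapped, and the log2 fold changes were 0.04 ± 0.10 in HxD and 0.01 ± 0.10 in KO. Libraries 2 and 4 lay above libraries 1 and 3 in both WT and HxD. The summed cortical neuron markers were also higher in libraries 2 and 4, at 9516, 12600, 8314 and 10030 CPM in WT 1 to 4 and 8728, 11680, 7229 and 11140 in HxD 1 to 4, and stood at 9817, 8933, 10680 and 11470 in KO. Their part in the Snrpn values was not tested. Snurf, which shares its transcript with Snrpn, was listed at 1 in all 12 libraries. No source used here says how reads of the shared transcript were assigned. Magel2, another MAGE gene, stood at 2.51, 0.952, 3.16 and 1.203 CPM in WT 1 to 4, at 6.46, 1.95, 26.3 and 0.683 in HxD 1 to 4 and at 1.199, 2.004, 1.18 and 0.513 in KO 1 to 4. HxD 3 set the higher HxD mean: the log2 fold change against WT was 2.18 ± 0.96 with it (edgeR adjusted p = 0.999) and 0.63 ± 0.75 without it. In KO against HxD it was -2.83 ± 0.99 (adjusted p = 0.319), and -1.30 ± 0.76 without that library.

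Mkrn3, a makorin ubiquitin ligase whose loss brings early puberty in people, rested on 9 to 38 estimated counts per library. It stood at 1.26, 0.857, 2.795 and 1.504 CPM in WT 1 to 4, at 2.26, 2.86, 2.46 and 3.71 in HxD and at 2.23, 2.004, 2.78 and 1.71 in KO. WT 3 lay among the mutant libraries and the other WT libraries below them, and the log2 fold changes were 0.82 ± 0.39 in HxD (edgeR adjusted p = 0.999) and 0.45 ± 0.39 in KO (adjusted p = 0.794). Ube3a, the maternally expressed ubiquitin ligase lost in Angelman syndrome, stood at 151, 24.5, 12.4 and 23.5 CPM in WT 1 to 4, at 39.8, 23.8, 64.3 and 30.3 in HxD and at 46.6, 66.3, 33.5 and 80.3 in KO. WT 1 lay above every other library, and all mutant libraries lay within the WT range. Peg12, of the FRAT family, was listed at 0 to 3 counts and was not tested.

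**Figure D3:**
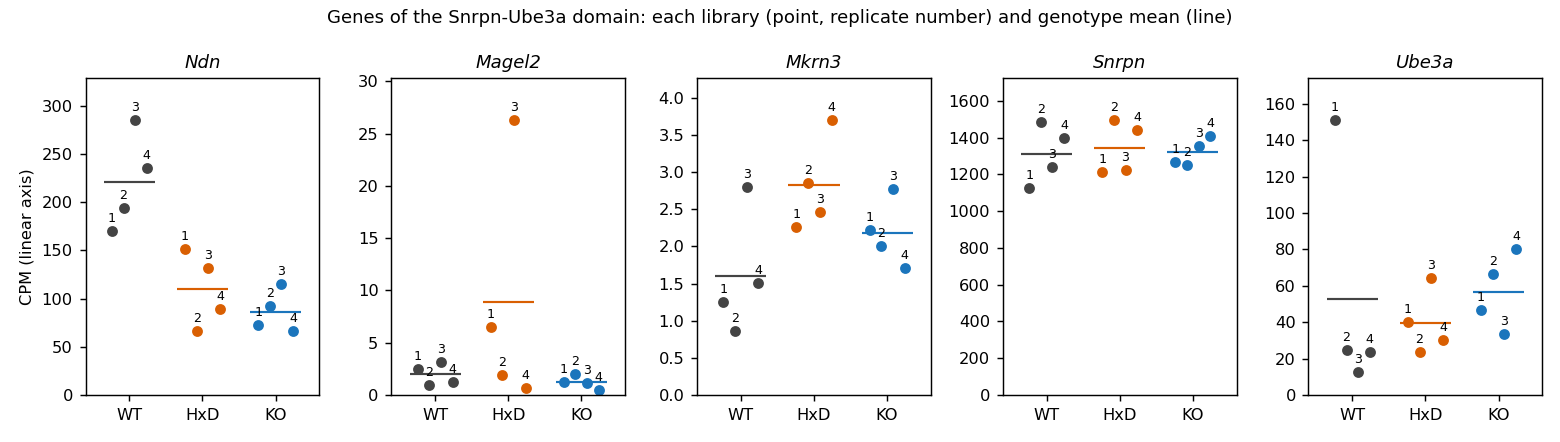
CPM (y axes, linear from 0) of Ndn, Magel2, Mkrn3, Snrpn and Ube3a in each library (points with replicate number) and the mean of each genotype (lines). All HxD and KO points of Ndn lie below the lowest WT point at 170.2 CPM, whereas Snrpn lies between 1124 and 1498 CPM in every library.

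Grb10 was listed at high counts in HxD and at 0 in KO. It encodes an adaptor that restrains insulin and IGF receptors, and is transcribed from the maternal copy in most tissues and from the paternal copy in neurons. Its estimated counts were 2, 21, 218 and 27 in WT 1 to 4, 566, 314, 455 and 599 in HxD 1 to 4 and 0, 0, 0 and 0 in KO 1 to 4. Every HxD library lay above every WT library, of which WT 3 came closest. HxD stood at 53.4 ± 8.96 CPM and WT at 7.86 ± 12.5, with a log2 fold change of 2.77 ± 1.16 (edgeR adjusted p = 0.999). Without WT 3 it was 5.0 (adjusted p = 0.0497), and by limma-voom over all libraries the adjusted p was 0.0155. For KO no fold is given, and edgeR's adjusted p was 0.231 against WT and 0.0585 against HxD. The latter was 3.2e-04 with WT out of the fit, 0.025 without WT 1 and 0.00324 without WT 3. It was not below 0.05 in the other alternatives. There the adjusted p reached 0.138 in edgeR with 1 library left out, and 0.259 over all alternatives, other tests among them. Ddc, the neighbouring aromatic amino acid decarboxylase gene, was among those at 0 throughout.

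Some rows stepped between 0 and at least 100 estimated counts inside a genotype. This held for 4 of the 30 members that reached 100 counts (13.3%) and for 10% of all rows that did. Zdbf2, a paternally expressed zinc finger gene, held 0, 0, 398 and 0 counts in WT 1 to 4, 0, 198, 656 and 212 in HxD and 0, 0, 0 and 179 in KO. Each genotype thus had libraries at 0 beside libraries above 100. Trappc9, a subunit of a trafficking complex, held 0, 164, 0 and 158 in WT, 0, 11, 0 and 20 in HxD and 0, 591, 145 and 0 in KO. It was at 0 in libraries 1 and 3 of WT and HxD and in libraries 1 and 4 of KO. Dlk1, a Notch-like transmembrane protein, held 29, 7, 173 and 0 in WT, 167, 0, 373 and 11 in HxD and 0, 18, 25 and 23 in KO. Plagl1, a zinc finger regulator of other imprinted genes, held 13, 0, 0 and 0 in WT, 16, 0, 14 and 190 in HxD and 0, 26, 27 and 8 in KO. Its log2 fold change in HxD against WT was 3.86 ± 1.89 (edgeR adjusted p = 0.999), and most of the HxD signal lay in HxD 4. Without HxD 4 it was 1.59, and without WT 1 no fold is given, since the other WT libraries are at 0. The 4 stepping genes have a median of 7.5 RefSeq transcripts, the 5 genes at 0 throughout a median of 5 and the other 41 a median of 3. The part of transcript number in these values was not tested.

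**Figure D4:**
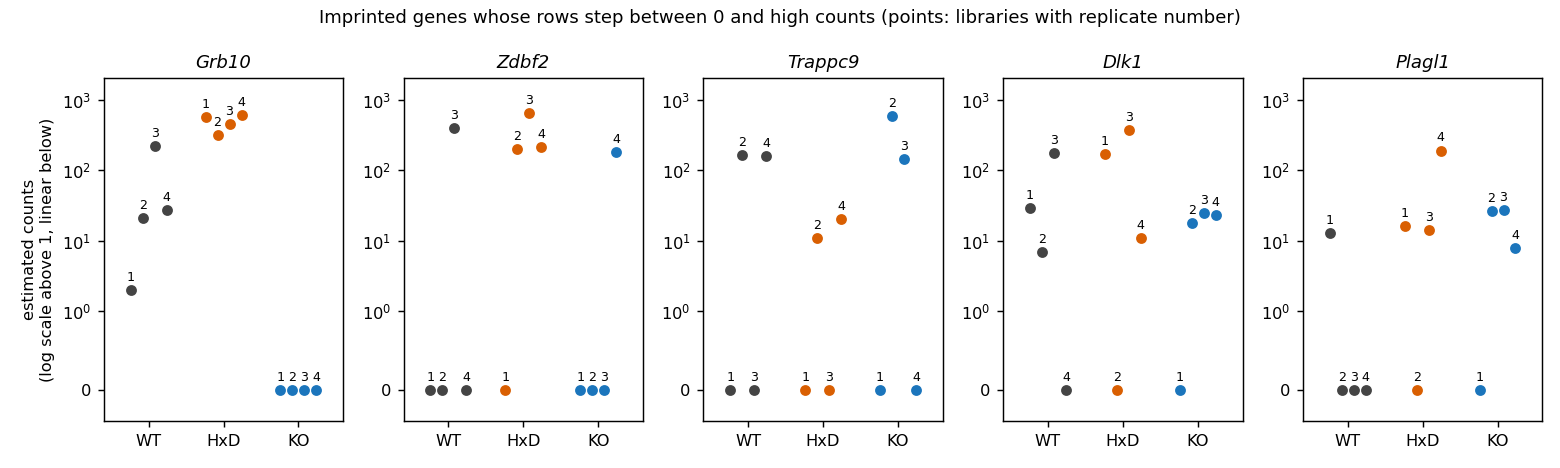
Estimated counts (y axes, logarithmic above 1) of Grb10, Zdbf2, Trappc9, Dlk1 and Plagl1 in each library (points with replicate number). Grb10 lies at 314 to 599 in the HxD libraries and at 0 in the KO libraries, while the other 4 genes have libraries at 0 beside high ones within a genotype.

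In the Dlk1-Dio3 domain the 3 maternally expressed noncoding RNAs had higher means in both mutants than in WT, and none was called. Meg3, a nuclear long noncoding RNA, stood at 5.82, 7.24, 6.32 and 1.81 CPM in WT 1 to 4, at 10.6, 11.96, 10.8 and 6.15 in HxD and at 10.6, 9.09, 4.71 and 15.6 in KO. HxD 4 and KO 3 lay within the WT range and the other mutant libraries above it. Its log2 fold changes were 0.90 ± 0.46 in HxD (edgeR adjusted p = 0.999) and 0.91 ± 0.46 in KO (adjusted p = 0.581), the latter 0.60 without KO 4. Rian, a host of C/D small nucleolar RNAs, stood at 12.4, 8.47, 7.66 and 15.9 CPM in the WT libraries, at 8.94, 8.84, 37.5 and 25.7 in HxD and at 12.3, 18.2, 20.96 and 21.01 in KO. HxD 1 and HxD 2 lay within WT and HxD 3 and HxD 4 above it, with log2 fold changes of 0.86 ± 0.47 in HxD and 0.70 ± 0.47 in KO (adjusted p = 0.999 and 0.691). Without HxD 3 the Rian value in HxD was 0.37 ± 0.42. Mirg, the host of a microRNA cluster, stood at 1.48, 2.48, 1.95 and 1.203 CPM in the WT libraries, at 1.94, 2.86, 4.92 and 3.41 in HxD and at 4.97, 3.34, 1.18 and 3.42 in KO, on 11 to 42 counts. HxD 1 and KO 3 overlapped with WT, and the log2 fold changes were 0.88 ± 0.46 and 0.85 ± 0.46 (adjusted p = 0.999 and 0.62), with 0.56 in KO without KO 1. Of the paternally expressed genes there, the retrotransposon-derived Rtl1 had log2 fold changes of 0.44 ± 0.36 and 0.36 ± 0.36 (adjusted p = 0.999 and 0.839). Rtl1 stood at 16.98 CPM in HxD 3 and at 5.38 to 8.19 in the other HxD libraries, and without HxD 3 its value in HxD turned to -0.03 ± 0.28. The deiodinase gene Dio3, at 0 to 8 counts, was not tested.

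Library HxD 3 held the highest value for 11 of the 36 tested members (30.6%) and for 11% of all tested genes. For 4 members (11.1%) it was at least 2 times the next library, as for 0.47% of all tested genes. Zim1, a maternally expressed zinc finger gene beside Peg3, stood at 3.99, 3.81, 6.198 and 2.61 CPM in WT 1 to 4, at 5.49, 1.43, 26.9 and 3.71 in HxD and at 4.62, 4.28, 2.25 and 2.904 in KO. Peg10, a retrotransposon-derived gene, stood at 17.6, 19.04, 32.9 and 22.1 CPM in the WT libraries, at 16.5, 26.9, 89.8 and 20.2 in HxD and at 16.6, 18.2, 12.3 and 17.1 in KO. Apart from HxD 3 the genotypes overlapped in both genes, and the other 2 members were Magel2 and Dlk1. Peg3 stood at 639 CPM in HxD 3 and at 349 to 426 CPM elsewhere. Calcr, the calcitonin receptor, was under the filter, with 55 counts in HxD 3 and at most 5 in any other library (HxD against WT, two-sided exact permutation test, p = 0.143, adjusted p = 0.964, smallest p possible 0.0286). Its neighbour Asb4, an ankyrin repeat protein, held 27 counts there and at most 7 elsewhere.

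The same library stood apart in markers of neighbouring tissue. The 10 hypothalamic markers summed to 52.1 CPM in HxD 3 and to 0.3902 to 7.05 CPM elsewhere. Most of that sum was the thyrotropin-releasing hormone gene Trh at 34.2 CPM and the vasopressin gene Avp at 12.1, while Oxt, Pmch, Hcrt, Agrp, Gal and Ghrh were at 0 in HxD 3. The 9 striatal markers, 1 of them at 0, summed to 1123 CPM in HxD 3 and to 259.9 to 696 CPM elsewhere. The part of such tissue in these values was not tested. In KO against HxD, 9 of 36 lay above with all libraries (50.2% of all genes) and 14 of 36 without HxD 3 (50.6%). In KO against HxD the log2 fold change of Peg10 was -1.26 ± 0.49 (edgeR adjusted p = 0.363) with HxD 3 and -0.40 ± 0.26 without it. That of Zim1 was -1.42 ± 0.75 with it and -0.02 ± 0.49 without it. For Ndn in HxD against WT it was -1.12 ± 0.31 without HxD 3, close to its value over all libraries.

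**Figure D5:**
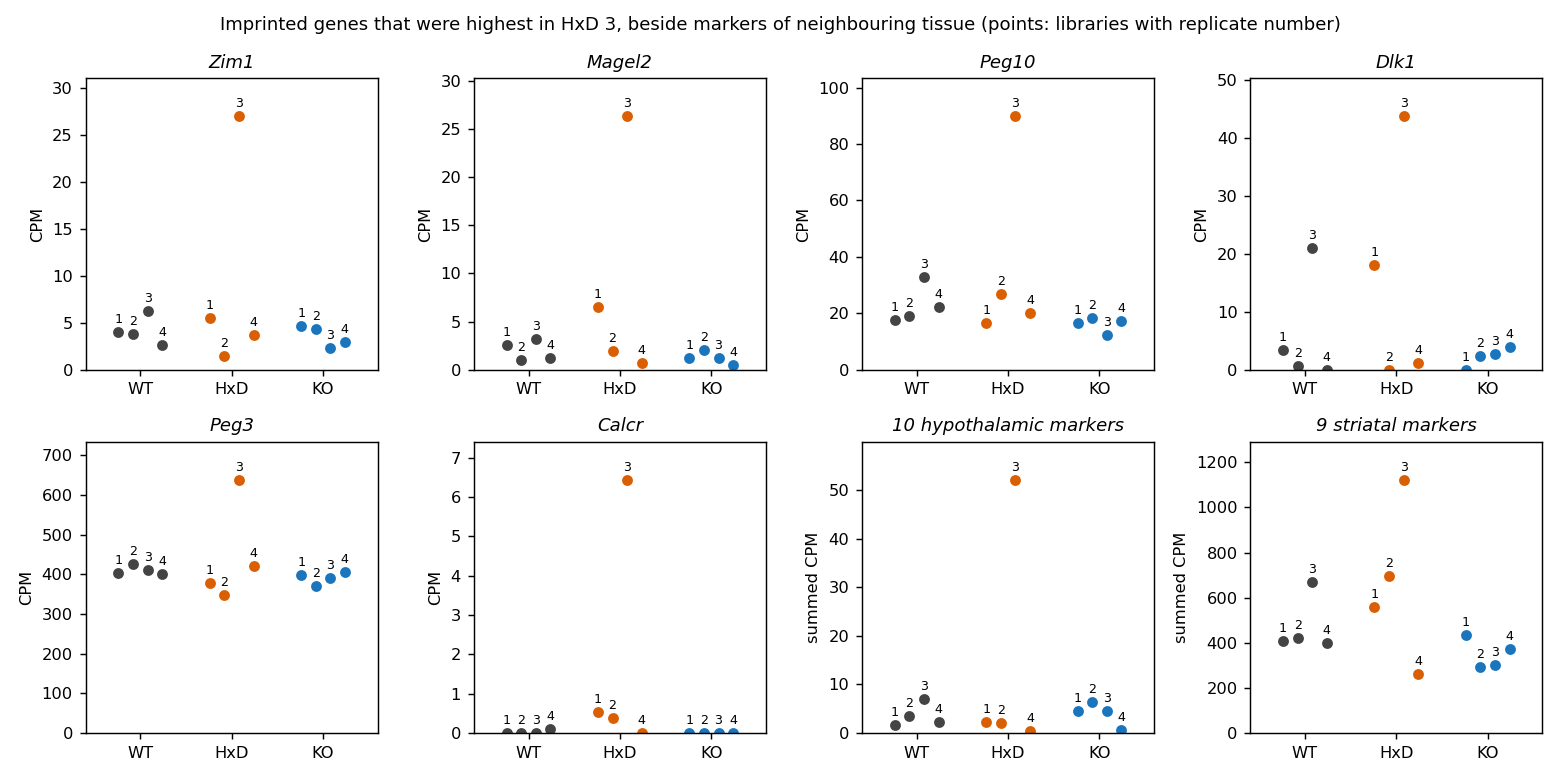
CPM (y axes, linear from 0) of 6 imprinted genes and summed CPM of 10 hypothalamic and 9 striatal markers in each library (points with replicate number). HxD 3 is the highest point in all 8 panels, at 26.9 CPM for Zim1 and 52.1 summed CPM for the hypothalamic markers.

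Several loci hold a paternally expressed gene inside an intron of a host gene. In the 2 pairs with both genes tested, Nap1l5-Herc3 and Peg13-Trappc9, the inner gene varied less between replicates. The inner gene also held more counts than its host in every library, and the part of count level in that spread was not tested. Nap1l5 stood at 487, 531, 461 and 631 CPM in WT 1 to 4, at 465, 544, 602 and 470.0 in HxD and at 483, 700.1, 622 and 549 in KO. Its host Herc3, a ubiquitin ligase gene, stood at 4.11, 5.998, 0 and 2.21 CPM in the WT libraries, at 2.37, 4.42, 0 and 4.49 in HxD and at 1.71, 2.41, 0 and 0 in KO. Nap1l5 overlapped over the genotypes, with log2 fold changes of -0.02 ± 0.14 and 0.16 ± 0.14, and Herc3 was at 0 in library 3 of each genotype and in KO 4. Peg13 stood at 429, 591, 380.4 and 538 CPM in the WT libraries, at 318, 446, 338 and 495 in HxD and at 458, 357, 391 and 509 in KO, beside the steps of its host Trappc9. As for Snrpn and the cortical neuron markers, libraries 2 and 4 were above libraries 1 and 3 in WT and in HxD. Mcts2, a retrogene of Mcts1, stood at 13.8, 12.0, 13.98 and 14.8 CPM in the WT libraries, at 13.1, 15.2, 12.4 and 12.0 in HxD and at 9.76, 18.4, 17.4 and 11.5 in KO. Its host H13, the signal peptide peptidase gene, held 0, 0, 5 and 0 counts in WT, 0, 3, 0 and 3 in HxD and 0, 0, 0 and 0 in KO. Reads in an intron that 2 genes share could be counted for either, and no source used here says how this was settled.

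At the Nnat locus the host had the higher value. Nnat, which encodes the membrane proteolipid neuronatin, held 2, 0, 4 and 2 counts in WT 1 to 4, 5, 0, 10 and 0 in HxD and 1, 3, 0 and 0 in KO, and was not tested. Its host Blcap stood at 29.4, 12.9, 34.9 and 44.1 CPM in the WT libraries, at 29.3, 15.5, 0.8196 and 11.7 in HxD and at 11.8, 17.5, 29.5 and 10.8 in KO. The genotypes overlapped, HxD 3 was the lowest library, and the log2 fold changes were -1.08 ± 0.76 and -0.80 ± 0.75 (edgeR adjusted p = 0.999 and 0.822). Without HxD 3 the former was -0.695 ± 0.501. Commd1, the host of Zrsr1 and a regulator of copper handling, stood at 0.342, 1.05, 0.608 and 1.203 CPM in the WT libraries, at 0.538, 1.04, 1.17 and 1.37 in HxD and at 0.856, 0.935, 1.39 and 0.854 in KO. It had the lowest mean CPM of the tested members, on 3 to 14 counts, and its genotypes overlapped.

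Genes of the IGF axis did not pass the test. Igf2, a growth factor grouped here as paternally expressed, is made in adult brain largely in meninges and choroid plexus. Which parental copy those tissues use cannot be seen here. Igf2 stood at 72.6, 37.3, 40.5 and 25.4 CPM in WT 1 to 4, at 37.5, 0.3899, 69.1 and 34.6 in HxD and at 50.4, 44.2, 10.3 and 0.513 in KO. HxD 2 and KO 4 lay far below the other libraries. The 10 meningeal markers, 1 of them at 0 in HxD 2, summed to 35.4 CPM in HxD 2, to 148 in KO 4 and to at least 108.8 in each library but HxD 2. Of these markers, 1 lay above WT in HxD and 0 in KO (median log2 fold change -0.245 and -0.176). The 9 choroid plexus markers summed to 273 CPM in HxD 1, of which Ttr gave 246.6, and to 3.61 to 35.7 CPM elsewhere. The part of these tissues in the Igf2 values was not tested. Igf2r, the maternally expressed receptor that clears IGF2, stood at 68.5, 61.9, 59.4 and 51.03 CPM in the WT libraries, at 67.7, 54.7, 65.3 and 56.6 in HxD and at 45.04, 47.7, 51.8 and 56.4 in KO. The KO libraries lay at the low end and overlapped with both other genotypes, with log2 fold changes of -0.26 ± 0.12 against WT (edgeR adjusted p = 0.513) and -0.28 ± 0.12 against HxD (adjusted p = 0.382). Airn, the antisense RNA that silences the paternal Igf2r copy, held 2, 2, 0 and 0 counts in WT, 4, 2, 2 and 6 in HxD and 4, 2, 1 and 2 in KO. In CPM each HxD library of Airn was above each WT library (two-sided exact permutation test, p = 0.0286, the smallest possible, adjusted p = 0.771 over 27 such tests).

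In the Kcnq1ot1 domain, the antisense RNA Kcnq1ot1 stood at 35.8, 25.3, 36.5 and 28.97 CPM in WT 1 to 4, at 24.8, 27.95, 68.96 and 47.4 in HxD and at 32.4, 20.2, 26.6 and 29.7 in KO. HxD 3 and HxD 4 lay above the other libraries, and the log2 fold change in KO against HxD was -0.64 ± 0.31 (edgeR adjusted p = 0.461), or -0.29 without HxD 3. Cdkn1c, the cell cycle inhibitor p57 that Kcnq1ot1 silences on the paternal copy, stood at 8.94 ± 3.301, 10.5 ± 3.67 and 10.1 ± 7.17 CPM in WT, HxD and KO, and its libraries overlapped. Slc22a18, a transporter gene, held 0, 5, 0 and 0 counts in WT, 0, 14, 0 and 0 in HxD and 0, 7, 0 and 0 in KO, so that library 2 alone had counts in each genotype. Phlda2 and, at other loci, Mest and H19 were at 0 throughout.

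The remaining members overlapped between genotypes. Ppp1r9a stood at 554, 728, 486 and 570.2 CPM in WT 1 to 4, at 486, 551, 487 and 612 in HxD and at 539, 421, 514 and 533 in KO, with log2 fold changes of -0.13 ± 0.13 and -0.22 ± 0.13. Slc38a4, an amino acid transporter and 1 of the 3 members of lowest mean CPM, stood at 3.65, 1.14, 3.16 and 1.91 CPM in the WT libraries, at 3.77, 1.30, 2.23 and 1.46 in HxD and at 1.71, 2.27, 2.67 and 1.71 in KO. Usp29, a ubiquitin peptidase gene of the Peg3 domain, stood at 11.2 ± 1.73, 10.8 ± 3.89 and 7.57 ± 4.88 CPM in WT, HxD and KO. Sgce, which encodes epsilon-sarcoglycan and underlies myoclonus-dystonia, stood at 9.94 ± 3.598, 10.5 ± 2.28 and 8.74 ± 3.102 CPM. None of these genes had an adjusted p below 0.65 in a comparison with WT. Copg2, a coatomer subunit, stood at 103 ± 12.6, 109.6 ± 13.4 and 93.1 ± 10.2 CPM, and the potassium channel gene Kcnk9 at 134 ± 22.9, 145 ± 42.9 and 118 ± 12.8. Inpp5f, an inositol phosphatase, stood at 61.1 ± 18.2, 60.7 ± 20.7 and 68.2 ± 28.7 CPM, and Impact at 494 ± 102, 485 ± 66.4 and 463 ± 114. Adam23, the neighbour of Zdbf2 and a neuronal adhesion protein, stood at 240.4 ± 63.9, 232 ± 49.1 and 269 ± 58.4 CPM, and its libraries 2 and 4 were above libraries 1 and 3 in WT and HxD as well. Rasgrf1, a Ras exchange factor of neurons, held at most 7 counts and was not tested.

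Genes of a locus were also compared over the 12 libraries, on log2 CPM. Of 16 pairs, 12 had both genes tested, and 0 had an adjusted p below 0.05, with 1 at an unadjusted p below 0.05 (permutation tests, two-sided). Meg3 and Mirg came closest, with r = 0.715 (p = 0.00611, adjusted p = 0.0733) and rho = 0.741 (p = 0.00772, adjusted p = 0.0926) by permutation. Without the libraries farthest from the median of Meg3, WT 4 and KO 4, r was 0.676, and with each genotype centred on its mean it was 0.572. Within single genotypes 4 libraries are too few for a correlation.

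Another 36 genes reported as imprinted were listed with earlier results of these data known, and 20 of them were tested. Of these, 1 was lower in HxD than in WT (0.411% of all genes were called lower). In KO against WT 0 were called (2 at an unadjusted p below 0.05, as were 9.48% of all genes), and 2 were higher in KO than in HxD (0.445% of all genes). Phactr2, a phosphatase and actin regulator, held 357, 363, 385 and 352 counts in WT 1 to 4, 20, 0, 22 and 2 in HxD and 124, 180, 249 and 150 in KO. Its HxD libraries lay below all others, with log2 fold changes of -4.98 ± 0.85 against WT (edgeR adjusted p = 0.0168) and of 4.29 ± 0.83 for KO against HxD (adjusted p = 0.036). With the third genotype out of the fit those adjusted p-values were 0.119 and 0.18. Pon2, an intracellular lactonase gene, stood at 90.5, 78.3, 86.3 and 84.9 CPM in the WT libraries, at 56.6, 59.9, 77.2 and 51.7 in HxD and at 106, 86.2, 93.3 and 100.4 in KO. Its HxD libraries were the lowest, with a log2 fold change of 0.65 ± 0.12 for KO against HxD (adjusted p = 0.0283, or 0.142 without WT in the fit) and -0.47 ± 0.12 for HxD against WT (adjusted p = 0.231). In KO against HxD, leaving out 1 library ended the call of Phactr2 in 10 of 12 fits, all but those without HxD 2 or HxD 3 (adjusted p up to 0.0887). It ended that of Pon2 in 10 of 12 fits, all but those without HxD 3 or KO 2 (adjusted p up to 0.122). Of 15 genes that keep imprints or DNA methylation, 12 were tested and 0 called in any comparison, with 0 at an unadjusted p below 0.05. The smallest p-values in HxD against WT were those of the co-repressor gene Trim28, with a log2 fold change of 0.13 ± 0.07, and of the histone methyltransferase gene Ehmt2, with 0.53 ± 0.60 (edgeR adjusted p = 0.999 for both). Of 18 IGF signalling genes, 15 were tested and 0 called, with 1 at an unadjusted p below 0.05 in HxD against WT (4.05% of all genes), 2 in KO against WT (9.48%) and 4 in KO against HxD (11.6%). Among them the receptor gene Igf1r stood at 180.1, 164, 172 and 179 CPM in the WT libraries, at 145, 146, 146 and 151 in HxD and at 164, 125, 153 and 150.2 in KO, with log2 fold changes of -0.24 ± 0.08 and -0.23 ± 0.08 against WT (edgeR adjusted p = 0.674 and 0.375). Every mutant library of Igf1r lay below the lowest WT library, with KO 1 at 163.7 CPM just under WT 2 at 163.9. Libraries likewise did not overlap for 3.48% of all genes in HxD against WT and 7.2% in KO against WT. The next smallest p in HxD against WT was that of Igfbp5, an IGF binding protein, with a log2 fold change of -0.35 ± 0.16, and in KO against WT that of the receptor substrate gene Irs1, with 0.33 ± 0.14 (edgeR adjusted p = 0.999 and 0.498).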

How the data were processed

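The labels give total RNA from whole adult cortex, poly(A) selection on oligo d(T) beads and an Illumina sequencer. Per the submitters' processing notes, StringTie 2.2.3, SAMtools 1.9, STAR 2.7.1a, Trim Galore 0.6.7, FastQC and the builds mm10 and GRCm39 were used, without stated roles. The authors deposited 1 table of estimated counts per gene symbol and library, without normalization. It was read as estimated because ubiquitous genes such as Gnas stand at 0, and rounding to whole numbers changed nothing. Of 21769 rows, 56 on 25 repeated symbols were left out, and 11693 genes passed filterByExpr by genotype.

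CPM were scaled by TMM. The main test was edgeR 4.0.16 quasi-likelihood (R 4.3.3), robust, on genotype over all 12 libraries (9 residual degrees of freedom), two-sided, with Benjamini-Hochberg adjustment over all tested genes. In counts simulated for KO against WT over 11358 genes it called 36 of 100 genes changed 2-fold, 86 of 100 changed 4-fold and 3 unchanged genes. The changed genes were drawn only from those with a mean of at least 50 counts. These shares therefore say nothing of members with fewer counts, such as Commd1 and Mkrn3. DESeq2 1.42.0, limma-voom (limma 3.58.1), other scalings and filters, a replicate block and leaving out each library were alternatives. Genes under the filter had exact permutation tests, and pairs used log2(CPM + 0.5) with 100000 resamples. Members and lists were chosen with earlier results of these data known. Values in every library are given for the 5 members of smallest p per comparison, the 3 of highest and 3 of lowest mean CPM, host and nested pairs, Meg3, Rian, Mirg and rows that stepped from 0 to 100 counts. Of each other list, members called, or with the smallest p, were named.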

Additional observations from a re-analysis of the deposited data

Results flagged for a closer look

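In 7 of 108 groups of 4 libraries (36 genes in 3 genotypes), 1 library lay so far from the other 3 that its gap, as a share of the whole range, exceeded Dixon's critical value. Chance flags about 1 in 20 groups. Igf2 in HxD 2 stood at 0.390 CPM, below 34.6 to 69.1 in the other HxD libraries. Impact in HxD 2 stood at 385 CPM, below 509.6 to 525. Meg3 in WT 4 stood at 1.81 CPM, below 5.82 to 7.24 in the other WT libraries. Cdkn1c in KO 2 stood at 20.8 CPM, above 5.65 to 7.06 in the other KO libraries. In the last 3 groups the other libraries were at 0: Plagl1 in WT 1 at 1.48 CPM, Zdbf2 in WT 3 at 48.4 CPM and Zdbf2 in KO 4 at 30.6 CPM.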

How the results depend on the processing

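The count of imprinted genes called, 0 in each comparison, was 1 by DESeq2 in HxD against WT and in KO against WT (Ndn), and 1 by limma-voom in HxD against WT (Grb10). In KO against HxD it was 1 with only the 8 libraries compared (Grb10). With 1 library left out it was 0 to 1 in HxD against WT (1 without WT 3) and in KO against HxD (1 without WT 1 or WT 3), in each case Grb10. The members above HxD in KO, 9 of 36, were 9 to 14 with 1 library left out (14 without HxD 3). Pairs with an adjusted p below 0.05 were 0 to 1 with 1 library left out, Meg3-Mirg without HxD 1 or HxD 4. The r of Meg3-Rian, -0.01, was 0.02 at a pseudocount of 5 CPM and -0.17 to 0.08 with 1 library left out, where Zdbf2-Adam23 gave -0.26 to 0.13, Peg3-Usp29 -0.10 to 0.49 and Peg10-Sgce -0.03 to 0.49. The causes were not tested. Over all alternatives the log2 fold change of Ndn lay between -1.21 and -0.84 in HxD (adjusted p 0.0252 to 0.799) and between -1.53 and -1.21 in KO (3.2e-04 to 0.304).

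Over all genes, calls in the comparisons of HxD with WT, KO with WT and KO with HxD, in this order, were 172, 288 and 396 by DESeq2, 82, 0 and 84 by limma-voom, and 95, 0 and 105 with only the 8 libraries compared, against 105, 18 and 119. No source used here says whether replicate numbers pair the samples. Deviations of same-numbered libraries correlated at -0.0708 to 0.0779 over 12 pairs, and 4 of 12 libraries correlated best with their own number. Correlations over all genes cannot decide this, and neither can single genes picked after their values were seen. Herc3 was at 0 in library 3 of each genotype but also in KO 4. Slc22a18 had counts in library 2 alone, at most 14 of them. With the replicate block, calls over all genes were 74, 5 and 95, those of imprinted genes 0, 0 and 0, and 14 of 36 members lay above HxD in KO. The block also took the adjusted p of Phactr2 to 0.0796 in HxD against WT and to 0.105 in KO against HxD, and that of Pon2 to 0.0777.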
